A study of Mus musculus with 2 samples.

Results

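Hyaluronan is a long sugar polymer of the extracellular matrix that fills injured tissue and is made, cut and bound by a small set of proteins. The genes described here are 10 of them, of 19938 genes measured in all: the synthases Has1, Has2 and Has3, the hyaluronidases Hyal1 and Hyal2, the receptors Cd44 and Hmmr, and the binding proteins Vcan, Tnfaip6 and Hapln1. They were chosen by their known function, but with earlier results of these data known. Each was read from the probe set with the highest mean that carried its symbol alone. For 9 of the 10 there was such a probe set, 1 for each gene. The probe sets at Hyal1 are shared with Naa80 and are given apart.

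RNA came from tibialis anterior muscle of 2 groups of 129Sv/C57BL6 mice, Mef2a -/- (knockout) and Mef2a +/+ (wild type), both aged 2 to 4 months and of both sexes. In every mouse the right muscle had been injected with 50 µl of 10 µM cardiotoxin, a toxin from cobra venom that kills fibres, and was taken 7 days later, while fibres were being rebuilt. RNA of 5 mice per genotype was pooled in equal amounts and hybridised to 1 array, so both groups are injured, the comparison holds no uninjured muscle, and the data hold no measure of how far single mice or repeated arrays would vary. No test was therefore possible, no p-value is given, and every difference below describes these 2 arrays.

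Hyaluronan is polymerised at the cell membrane by the HAS enzymes from UDP-glucuronic acid and UDP-N-acetylglucosamine and is extruded directly into the matrix. Hyaluronidases and the cell-surface hyaluronidase system cut it into fragments, which lysosomal exoglycosidases degrade further. Cells bind it mainly through CD44, while versican, link proteins and TSG-6, the product of Tnfaip6, organise it into cross-linked coats. Muscle injury is known to be followed by a transient matrix rich in hyaluronan, made largely by mesenchymal cells and entered by macrophages.

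Values are log2 expression values from RMA, and differences subtract the value of the wild type pool from that of the labelled knockout pool. A gene was called measurable if at least 1 of its 2 values reached a floor of 4.39, the median of the whole table. As a view of background, 95% of the values of 1015 olfactory receptor genes, which muscle is not known to use, lay below 3.54. Mef2a itself read 9.06 in the labelled knockout pool and 8.92 in the wild type pool. The labels do not give the deleted part of the gene, so this probe set does not check them, and directions rest on the labels alone. Muscle fibre markers were at or above the floor in both pools for 13 of 13 genes. Xist, the RNA of X inactivation, read 8.03 in the labelled knockout pool and 6.72 in the wild type pool (2.49-fold). The labels do not state the sex ratio of either pool, and the part of sex in the differences below was not tested.

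Of the hyaluronan genes, 5 of the 9 with their own probe set were measurable, each at or above the floor in both pools: Has2, Hyal2, Cd44, Vcan and Tnfaip6. Of these 5, 4 were at least 1.5-fold higher in the labelled knockout pool and 0 at least 1.5-fold lower, where 6.45% and 1.90% of the 11787 measurable genes were. Their median difference was 0.77, beside 0.03 over all measurable genes. Has1, Has3, Hmmr and Hapln1 stayed below the floor in both pools, at values between 2.30 and 3.37. Over the 9 genes, measurable or not, the median difference was 0.13.

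**Figure D1:**
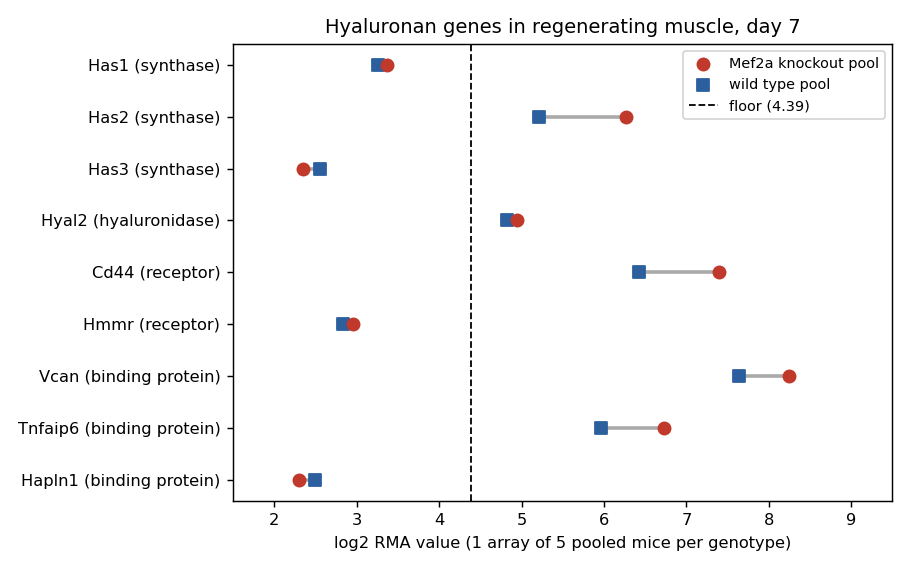
Log2 RMA values (horizontal axis) of the 9 hyaluronan genes with a probe set of their own, with 1 circle for the labelled Mef2a knockout pool, 1 square for the wild type pool and a dashed line at the floor of 4.39. Has2, Cd44, Vcan and Tnfaip6 lie right of the floor with the knockout pool clearly higher, Hyal2 differs little, and Has1, Has3, Hmmr and Hapln1 lie left of it.

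Among the synthases, only Has2 was measurable. HAS2 is the main synthase of mesenchymal cells and makes very long hyaluronan. Has2 read 6.27 in the labelled knockout pool and 5.21 in the wild type pool, a difference of 1.06 or 2.09-fold. Has2 was the only one of the measurable members past 2-fold, a limit passed upwards by 1.70% of all measurable genes. The size of its difference was larger than those of 98.8% of the 500 genes nearest to it in mean expression. Has1, a synthase often induced by inflammatory signals in cultured cells, read 3.37 and 3.26 in the labelled knockout and the wild type pool. Has3, which makes shorter chains, read 2.35 in the labelled knockout pool and 2.55 in the wild type pool. Both genes lay within the values of most olfactory receptor genes in each pool, so their differences of 0.12 and -0.20 are those of signals near background.

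The enzymes that make the sugar precursors of hyaluronan were all measurable, and they moved little apart from Ugdh. Ugdh, the dehydrogenase that makes UDP-glucuronic acid, read 7.87 in the labelled knockout pool and 7.23 in the wild type pool, 1.56-fold higher. Of these 7 genes it was the only one past 1.5-fold, and their median difference was 0.21. On the branch to UDP-N-acetylglucosamine, Gnpnat1 and Gfpt2 differed by 0.38 and 0.37, Gfpt1, the other form of the rate-limiting amidotransferase, by 0.21, and Pgm3 and Uap1 by 0.15 and 0.11. Ugp2, which makes the UDP-glucose that UGDH oxidises and which also feeds glycogen synthesis, was the one gene on the lower side, at 7.71 against 8.04 in the wild type pool (-0.32). These enzymes also serve other glycans.

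Of the hyaluronidases, Hyal2 was measured near the floor and differed little. HYAL2 is anchored to the cell surface and cuts long hyaluronan to intermediate fragments. Hyal2 read 4.95 in the labelled knockout pool and 4.83 in the wild type pool, a difference of 0.12, smaller than those of most of the 500 nearest genes (33.2% had a smaller one). Hyal1, the lysosomal hyaluronidase that cuts the fragments further, has no probe set of its own here. In RefSeq's annotation of GRCm38.p6 it lies next to Hyal2 on one side and Naa80, an acetyltransferase gene, on the other, and both probe sets carry the symbols of Naa80 and Hyal1. One read 5.59 in the labelled knockout pool and 5.27 in the wild type pool, and the other 5.64 and 5.41 in the same order. Both differences, 0.31 and 0.23, were below 1.5-fold, and which of the genes gives the signal cannot be told from them. Hyal3, beyond Naa80, was below the floor in both pools (3.85 in the labelled knockout pool and 4.28 in the wild type pool), as were Hyal4, Hyal5, Hyal6 and Spam1.

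Larger differences were found among breakdown genes outside the hyaluronidase family. Cemip encodes a protein needed for hyaluronan depolymerisation by fibroblasts. Cemip read 5.53 in the labelled knockout pool and 4.64 in the wild type pool, 1.86-fold higher. Its relative Cemip2, a transmembrane protein, was at 6.99 against 6.53 in the wild type pool, a difference of 0.46. The lysosomal exoglycosidases that remove single sugars from fragments were also higher: Gusb, the beta-glucuronidase, read 8.43 in the labelled knockout pool and 7.09 in the wild type pool (2.53-fold), and Hexa, a hexosaminidase subunit, 9.68 against 8.70 (1.97-fold). Both enzymes act on many other substrates. Together, 3 of the 5 measurable breakdown genes passed 1.5-fold on the higher side and 0 on the lower, with a median of 0.90. Over all 10 breakdown genes with a probe set of their own the median was 0.06, as Hyal3 (-0.43), Hyal4 (-0.36), Hyal5 (-0.28) and Spam1 (-0.22), below the floor in both pools, lay on the lower side.

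Among the receptors, Cd44 was almost 2-fold higher and Hmmr was not measurable. CD44 is the main hyaluronan receptor of leukocytes, fibroblasts and myoblasts. Cd44 read 7.40 in the labelled knockout pool and 6.42 in the wild type pool, a difference of 0.98 or 1.98-fold, larger than those of 98.8% of the 500 nearest genes. The single probe set does not separate the many spliced forms of CD44. Hmmr, whose product RHAMM binds hyaluronan at the surface and microtubules in the mitotic spindle, read 2.96 in the labelled knockout pool and 2.83 in the wild type pool, both below the floor. Other spindle genes were measurable for 11 of 15 genes, with a median difference of 0.23 and none past 1.5-fold. The largest among these 11 were Cdk1 (-0.34), Plk1 (0.32), and Kif15 and Kif20a (0.28 each).

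The measurable receptors of the wider list were all on the higher side, by differences from 0.18 to 0.98. Of 8 receptor genes, 6 were measurable, and 5 of these, Cd44 included, were at least 1.5-fold higher. Tlr2, an innate receptor that can respond to hyaluronan fragments, read 6.24 in the labelled knockout pool and 5.48 in the wild type pool (1.70-fold). Layn, which encodes layilin, a membrane lectin that binds hyaluronan, was 1.58-fold higher (5.52 against 4.86 in the wild type pool). Stab1, a scavenger receptor of macrophages and some endothelia, was 1.55-fold higher (7.93 against 7.30), but only by 0.57, under 1.5-fold, once a loess trend on mean expression was removed. Lyve1, the receptor of lymphatic endothelium and of tissue macrophages, read 5.02 in the labelled knockout pool and 4.39, just under the floor, in the wild type pool (1.54-fold). Tlr4 differed by 0.18. Stab2, a clearance receptor of liver sinusoids, was below the floor in both pools and lay on the lower side, at 3.75 in the labelled knockout pool and 4.27 in the wild type pool.

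Among the binding proteins, Tnfaip6 and Vcan were higher and Hapln1 was not measurable. TSG-6 transfers heavy chains of inter-alpha-inhibitor onto hyaluronan and so cross-links it. Tnfaip6 read 6.73 in the labelled knockout pool and 5.96 in the wild type pool, a difference of 0.77 or 1.71-fold, larger than those of 96.8% of the 500 nearest genes. Versican is the large chondroitin sulfate proteoglycan that binds hyaluronan in provisional matrix. Vcan read 8.24 in the labelled knockout pool and 7.64 in the wild type pool, a difference of 0.61 or 1.52-fold, larger than those of 91.6% of the 500 nearest genes. Vcan was close to the limit, and with the loess trend removed its difference was 0.55, under 1.5-fold, which leaves 3 members past it. Hapln1, the cartilage link protein that locks proteoglycans onto hyaluronan, lies next to Vcan in the reference. It read 2.30 in the labelled knockout pool and 2.50 in the wild type pool, so that of these neighbours only Vcan gave a measurable signal.

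**Figure D2:**
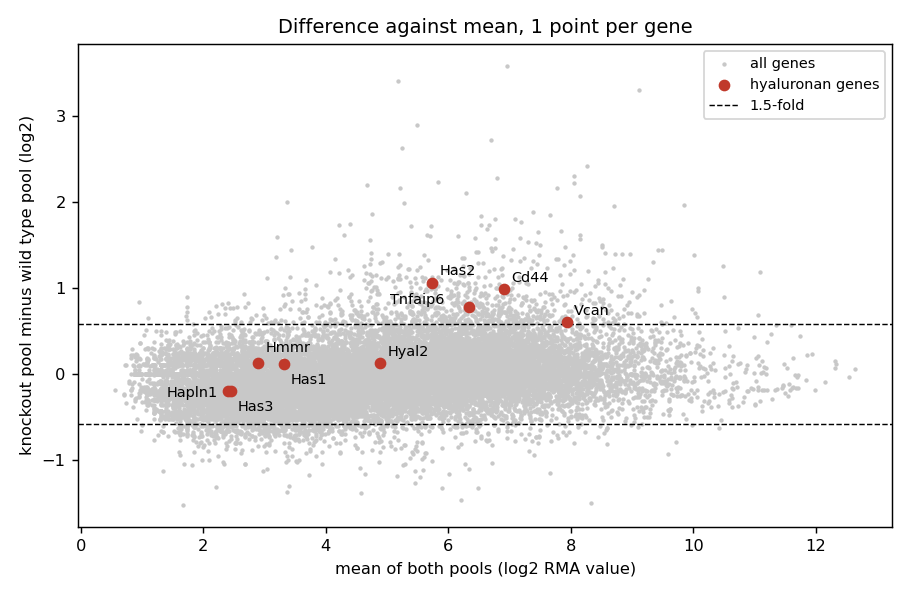
Difference between the labelled knockout pool and the wild type pool (vertical axis, log2) against the mean of both pools (horizontal axis, log2 RMA value), with 1 grey point per gene, the 9 hyaluronan genes in red and dashed lines at 1.5-fold. Has2 (1.06), Cd44 (0.98), Tnfaip6 (0.77) and Vcan (0.61) lie above the upper line, and the genes of low mean lie within the bulk of the points.

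Apart from Tnfaip6, the largest difference among the cross-linkers and other binding proteins lay on the lower side. Itih5, an inter-alpha-inhibitor heavy chain family gene expressed outside the liver, read 6.69 in the labelled knockout pool and 7.35 in the wild type pool, 1.59-fold lower, and was the only gene of the wider list at least 1.5-fold lower. Itih1, Itih2, Itih3, Itih4 and Ambp, whose products are plasma proteins made by the liver, were below the floor in both pools. Ptx3, a pentraxin that joins TSG-6 in hyaluronan matrices, differed by 0.48 (5.54 in the labelled knockout pool and 5.06 in the wild type pool). Habp4, an intracellular RNA-binding protein that also binds hyaluronan, read 6.73 and 6.74 in the same order. Of the proteoglycan and link protein genes apart from Vcan, Acan, Bcan, Hapln1, Hapln3 and Hapln4 were below the floor in both pools. Ncan (-0.52) and Hapln2 (-0.45) reached it only in the wild type pool, as did Habp2 (-0.54), the gene of a plasma protease that binds hyaluronan.

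Over the wider list of 48 hyaluronan genes, 46 had a probe set of their own and 27 were measurable. Of these 27, the labelled knockout pool had 12 higher by at least 1.5-fold and 1 lower, against 6.45% and 1.90% of all measurable genes, and the median difference was 0.46. Leaving out the members, 8 of 22 measurable genes were higher and 1 lower, with a median of 0.38. The other 19 genes lay below the floor in both pools. With these included, the median was 0.11 over the 46 genes and -0.01 over the 37 that are not members, beside -0.03 over all 19938 genes.

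**Figure D3:**
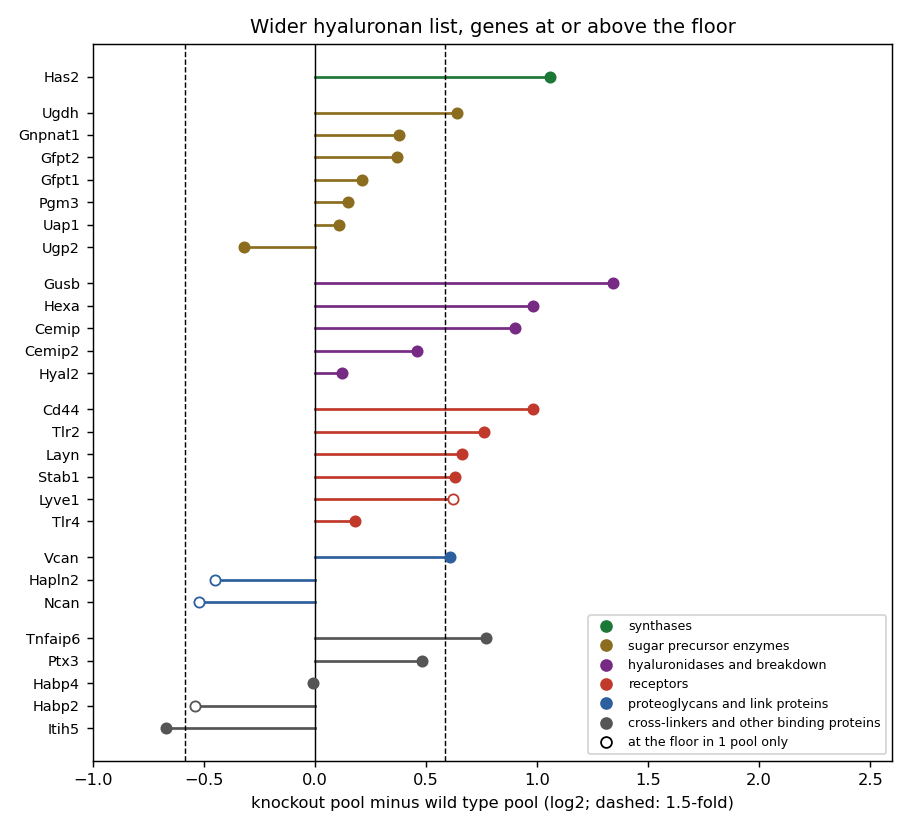
Difference between the labelled knockout pool and the wild type pool (horizontal axis, log2) for the 27 measurable genes of the wider hyaluronan list, grouped by role, with open circles for genes that reached the floor in 1 pool only and dashed lines at 1.5-fold. Points right of the right-hand line are found in each of the 6 role groups, and Itih5 (-0.67) alone lies left of the left-hand line.

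Sequence before the start of transcription is shown for Tnfaip6 and Cd44, members that were both higher in the labelled knockout pool. The bases are those of RefSeq for GRCm38.p6, printed 5′ to 3′ on the strand of the gene, from chr2:52037863-52038112 (plus strand) for Tnfaip6 and chr2:102901670-102901915 (minus strand) for Cd44. Capitals mark matches to the motifs searched.
Tnfaip6: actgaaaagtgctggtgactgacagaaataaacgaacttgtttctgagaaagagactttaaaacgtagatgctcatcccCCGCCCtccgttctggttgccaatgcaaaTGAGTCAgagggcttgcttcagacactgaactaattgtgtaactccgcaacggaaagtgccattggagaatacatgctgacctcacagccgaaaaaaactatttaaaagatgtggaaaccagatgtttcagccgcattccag
Cd44: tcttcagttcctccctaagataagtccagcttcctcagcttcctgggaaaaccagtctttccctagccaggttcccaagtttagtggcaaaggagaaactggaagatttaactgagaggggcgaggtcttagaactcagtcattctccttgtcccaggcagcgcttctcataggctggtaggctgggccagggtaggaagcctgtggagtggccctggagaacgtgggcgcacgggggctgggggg
The motifs were searched on both strands of the 8 promoter windows found for the 10 members, each of 250 bases before and 50 after a start. Has2 and Has3 had no window, so their promoters were not searched and the counts below do not cover them. In Tnfaip6, the AP-1 motif TGANTCA matched once, from 142 to 136 bases before the start, and the GC box GGGCGG matched once on the opposite strand. The AP-1 motif was in 1 of the 8 windows, against 7.81% of 32817 windows of all genes, and the GC box in 6 of 8, against 35.6%. In Cd44 the GC box matched once, just after the start and beyond the bases printed. The 246 bases printed for Cd44 stop short of the start from which matches were counted. The MEF2 motif was in 0 of the 8 windows and in 3.19% of all, the NF-kappaB motif in 1 of 8 (Hyal2) and in 8.46% of all, and TATAAA in 0 of 8 and in 13.6% of all. A match of letters does not show that a factor binds.

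Partners of these proteins were followed as companion lists. Among genes whose products bind or act with CD44, 6 of the 13 that were measurable passed 1.5-fold on the higher side and 0 on the lower, with a median of 0.50. The largest differences were those of Mmp9, a gelatinase that can dock on CD44 (8.75 in the labelled knockout pool and 5.16 in the wild type pool), Srgn, the intracellular proteoglycan serglycin (8.23 and 7.00 in the same order), Msn, which encodes moesin and links CD44 to actin (9.32 and 8.28), and the integrin gene Itga4 (7.45 and 6.71). Spp1, which encodes the ligand osteopontin, was not analysed here.

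Matrix partners of versican were measurable for 7 genes. Of these, 3 were at least 1.5-fold higher and 0 lower, with a median of 0.47. Tnc, the tenascin C gene, read 9.26 in the labelled knockout pool and 7.85 in the wild type pool, Fbn2, a fibrillin gene, 6.73 and 5.90 in the same order, and Ccn2, a matricellular growth factor gene, 8.37 and 7.64. Fn1, the fibronectin gene, differed by 0.47. Of the proteases that cleave versican or aggrecan, 1 of 6 measurable genes was past 1.5-fold: Adamts4 read 6.15 in the labelled knockout pool and 5.47 in the wild type pool (1.60-fold). Adamts9 (0.19), Adamts5 (-0.18) and Adamts20 (-0.17) differed little.

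Among signals known to induce Has2 in cultured cells, 6 measurable genes lay on the higher side and 2 on the lower. Of the 8 that were measurable, 2 passed 1.5-fold on the higher side and 1 on the lower, with a median of 0.25. Tgfb1 read 7.64 in the labelled knockout pool and 6.94 in the wild type pool (1.63-fold). Tnf read 4.43 in the labelled knockout pool and 3.71, below the floor, in the wild type pool. Egf was 1.79-fold lower (5.05 against 5.89 in the wild type pool). Pdgfa differed by 0.42. Il1b (0.52), Il6 (0.72) and Osm (0.50) were below the floor in both pools. With these included, the median over the 11 genes with a probe set of their own was 0.42.

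Markers of cell types were measured in the same RNA. In pooled tissue, more cells of a type and more RNA per cell cannot be told apart. Of 14 macrophage and monocyte markers, 13 passed 1.5-fold on the higher side, with a median difference of 0.93, and their summed linear level was 8039 in the labelled knockout pool and 3737 in the wild type pool, a ratio of 2.15. None of these 14 was below the floor in either pool. The part of macrophages in the differences of Cd44, Tlr2, Stab1, Lyve1, Hexa, Gusb, Has2, Tnfaip6 and Vcan was not tested. Of 11 fibroblast markers, all at or above the floor in both pools, 1 (Thy1, 0.62) was past 1.5-fold, their median difference was 0.12, and their summed level was 17044 against 15268 in the wild type pool, a ratio of 1.12.

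Other cell types differed less than the macrophage list. Tendon and cartilage markers had a median difference of 0.20 over 8 measurable genes, with Fmod (0.64) alone past 1.5-fold, and a summed level of 723.5 in the labelled knockout pool and 627.8 in the wild type pool. Endothelial markers had a median of 0.00 over 7 measurable genes, with Vwf (0.84) alone past 1.5-fold, and a summed level of 798.4 in the labelled knockout pool and 757.7 in the wild type pool. Of the lymphatic markers on that list, Prox1 differed by -0.45 and Pdpn by 0.44, and Flt4 was just under the floor at 4.38 in both pools, beside the 0.62 of Lyve1. Satellite cell and myoblast markers had a median of -0.13 over 9 genes, with Msc (-0.64) alone past 1.5-fold. Their summed level was 1711 against 1707 in the wild type pool. Muscle fibre markers were on the lower side for 13 of 13 genes, with a median of -0.18, 1 gene past 1.5-fold (Myh2, -0.62) and a summed level of 35741 against 39952 in the wild type pool. Of 8 neutrophil markers, 7 were below the floor in both pools, among them the defining genes Ly6g, S100a8 and S100a9, and Csf3r differed by 0.38.

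**Figure D4:**
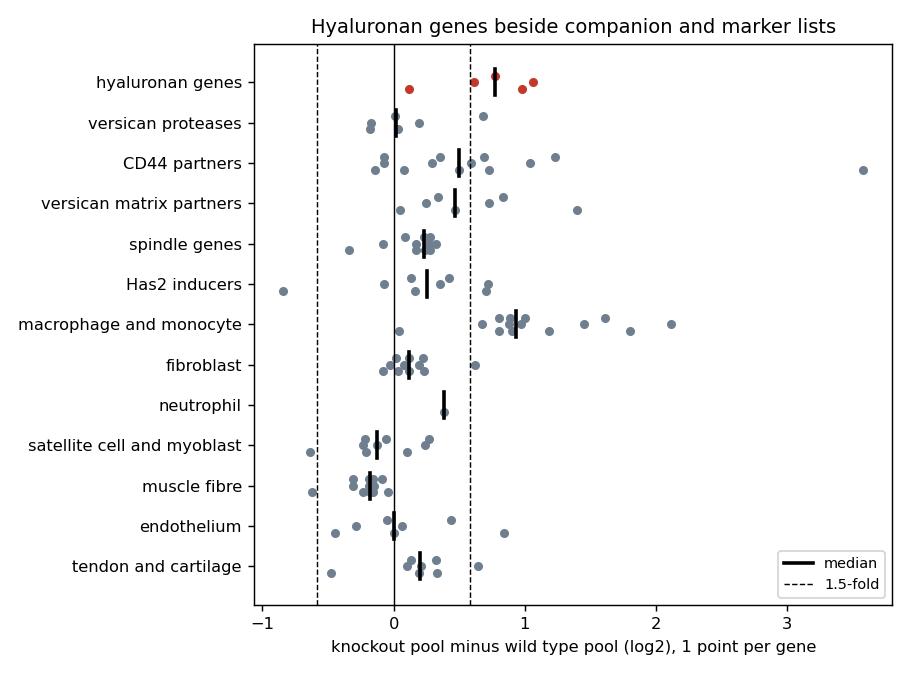
Difference between the labelled knockout pool and the wild type pool (horizontal axis, log2) for each measurable gene of the hyaluronan members (red) and of the companion and marker lists (grey), with a black bar at each list's median and dashed lines at 1.5-fold. The medians of the hyaluronan genes (0.77) and of the macrophage and monocyte markers (0.93) lie right of the 1.5-fold line, and those of the fibroblast (0.12) and muscle fibre (-0.18) markers lie near 0.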

How the data were processed

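The deposited table holds 1 log2 value per probe set and array for 2 arrays, which the authors made by RMA (Affymetrix Expression Console), as the submitters' processing notes say. Versions, settings and genome build: not given in the sources used here. RMA equalises the arrays' distributions (sorted values differ by at most 0.139), so a shift shared by most genes cannot be seen, and it compresses differences near background. The number of arrays limits the precision.

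Of 35557 probe sets, 21789 carried 1 gene symbol in the platform annotation, 1621 several and 12147 none. Only the first were used, with the highest-mean probe set per gene. Differences, counts past 1.5-fold and 2-fold, list medians and summed linear levels were computed with pandas 2.3.3 (Python 3.11.15, numpy 2.4.6), and the loess trend (span 0.3) with statsmodels 0.14.6. The counting was tested on simulated data with planted differences well past 1.5-fold, in genes well above the floor. That test does not cover calls close to the limit or to the floor. The percentage among the 500 genes nearest in mean expression is a description and not a test. The members and lists were chosen with earlier results of these data known. All members are named. Of the wider list, every gene past 1.5-fold is named, and of companion lists up to 4 genes with the largest differences. Other genes of these lists are named for their role or as chosen after their values were seen.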

Additional observations from a re-analysis of the deposited data

How the results depend on the processing

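The differences of the 9 members kept their direction and moved by less than 0.28, the robust SD of the difference over measurable genes, under all 5 alternatives that apply to single genes (median-centring, removal of the loess trend, the mean or the lowest of a gene's probe sets, and probe sets with several symbols). Their ranges were 1.03 to 1.09 for Has2, 0.92 to 1.01 for Cd44, 0.72 to 0.80 for Tnfaip6 and 0.55 to 0.64 for Vcan. The choice of probe set could not matter for members, which have 1 each, and adding probe sets with several symbols left their values unchanged. Median-centring shifts every gene by the same small amount. Only removal of the loess trend could therefore move members by differing amounts. With the loess trend removed, Vcan and Stab1 fell under 1.5-fold, and the cause was not tested. With a 2-fold limit 1 member (Has2) was higher, and of the wider list 2 genes (Has2 and Gusb) were higher and 0 lower. With the limit lowered to 0.32 on the log2 scale, 16 genes of the wider list were higher and 4 lower (Ncan, Hapln2, Itih5 and Habp2, of which all but Itih5 reached the floor in the wild type pool only). These shifts follow from the limit itself. With no floor, the median over 9 members was 0.13, since 4 members near background enter it. Raising the floor to 6.18, the 75th percentile, left 4 members, and 4 of 4 were higher. Has2 and Tnfaip6 reached that floor in the labelled knockout pool only (5.21 and 5.96 in the wild type pool). For them the filter itself favours the higher side, so this count gives no further support. Differences between mice and arrays cannot be seen at 1 array per genotype, and values below the floor bound no change. No paired analysis was possible because each genotype has 1 array.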
